A study of Homo sapiens with 41 samples.

Results

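Histone H3 acetylation was mapped by ChIP in MDA-MB231, a human triple-negative breast cancer line of epithelial origin, in cells given the HDAC6 inhibitor Nexturastat A (NextA) and in control cells (Ctrl). The 4 pan-acetyl libraries were chosen by their titles, NextA replicates 1 and 2 and Ctrl replicates 1 and 2, out of 41 samples in the series, of which 32 had a peak list. NextA cells received 5 µM of the compound for 2 days, Ctrl cells carried the label of control with no vehicle named, and the labels give no genetic change in either group. Each library was made from 100000 cells with one abcam antibody, which recognises histone H3 acetylated at lysines 9, 14, 18, 23 and 27 together. The series also holds ChIP of HDAC6 and of RNA polymerase II (PolII), HDAC6 CUT&Tag and ATAC-seq. Control lists of those assays, for HDAC6 ChIP only that of the CST antibody, served here as maps of untreated chromatin.

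Acetyl groups on the tail of histone H3 are placed by acetyltransferases such as p300 and CBP and removed by histone deacetylases, and they mark the nucleosomes that flank active promoters and enhancers. HDAC6 is a mostly cytoplasmic deacetylase, best known for acting on tubulin, cortactin and HSP90, and Nexturastat A was developed as an inhibitor selective for it. A peak is an interval in which the authors' peak caller found more ChIP reads than its background. The lists hold no read counts, so read depth is unknown, and a promoter without a peak may still have carried the mark below the calling threshold.

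In the full lists, more promoters carried a called acetylation peak in each NextA list than in the Ctrl list of the same number. Of 19974 protein-coding genes, 12184 and 8032 had a peak within 1 kb of a gene start in NextA replicates 1 and 2, against 1340 and 3939 in Ctrl replicates 1 and 2. A promoter was called gained when both NextA lists and neither Ctrl list had a peak there, and lost in the reverse case. The peaks of the lists did not have to overlap each other. By that rule 4047 of 15238 promoters without a Ctrl peak were gained (26.6%), and 0 of 543 with a peak in both Ctrl lists were lost. The rule carries no p-value, and with 2 lists a group an exact two-sided permutation test cannot go below 0.33. The second pair turned round at promoters when weaker peaks were left out. At a −log10 q of 5 or more, 6 promoters had a peak in NextA replicate 2 alone and 121 in Ctrl replicate 2 alone. Above a common p floor these were 196 and 258. In the first pair the same counts were 3801 against 1 and 9078 against 20. The count of gained promoters depended on list length. When each pair was cut to equal length by the caller's p, an alternative chosen after seeing the data, 390 promoters were gained and 42 lost.

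The sequences below are the start windows of 4 promoters with calls of high rank. CSNK1G3, CTNNBIP1 and NDUFB10 are among the 4 gained promoters of highest rank, and SERBP1 ranked first among promoters with a peak in all 4 lists. Each sequence runs from 250 bases before to 50 bases after a start listed by RefSeq (GRCh38.p14). The windows are chr5:123511927-123512226 (plus strand), chr1:9910220-9910519 (minus strand), chr16:1959288-1959587 (plus strand) and chr1:67430353-67430652 (minus strand). The NextA peaks of CSNK1G3 and the peaks of SERBP1 overlapped these windows, while those of CTNNBIP1 and NDUFB10 lay downstream of them, beginning within 1 kb of the start. The NDUFB10 peak of NextA replicate 2 ran on to chr16:1966156, past the gene end at 1961975. Capitals mark matches, on either strand, to any of the 9 motifs searched.
CSNK1G3: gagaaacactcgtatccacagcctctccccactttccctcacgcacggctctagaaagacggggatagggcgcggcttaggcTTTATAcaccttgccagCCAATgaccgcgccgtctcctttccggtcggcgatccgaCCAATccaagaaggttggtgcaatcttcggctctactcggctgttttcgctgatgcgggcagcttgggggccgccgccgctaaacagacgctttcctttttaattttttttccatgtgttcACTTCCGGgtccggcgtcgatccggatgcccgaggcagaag
CTNNBIP1: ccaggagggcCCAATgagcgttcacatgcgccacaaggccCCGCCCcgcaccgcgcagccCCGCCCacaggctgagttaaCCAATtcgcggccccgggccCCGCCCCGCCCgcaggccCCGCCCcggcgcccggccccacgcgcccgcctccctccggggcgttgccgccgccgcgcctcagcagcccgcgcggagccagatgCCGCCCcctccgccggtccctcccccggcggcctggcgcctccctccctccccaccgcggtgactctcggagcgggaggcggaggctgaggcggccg
NDUFB10: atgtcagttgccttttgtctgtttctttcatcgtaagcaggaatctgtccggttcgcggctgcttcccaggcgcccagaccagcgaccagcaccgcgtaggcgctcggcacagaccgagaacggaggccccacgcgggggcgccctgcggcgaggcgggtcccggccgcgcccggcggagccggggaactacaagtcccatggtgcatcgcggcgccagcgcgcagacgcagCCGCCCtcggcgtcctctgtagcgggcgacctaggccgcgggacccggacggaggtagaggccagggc
SERBP1: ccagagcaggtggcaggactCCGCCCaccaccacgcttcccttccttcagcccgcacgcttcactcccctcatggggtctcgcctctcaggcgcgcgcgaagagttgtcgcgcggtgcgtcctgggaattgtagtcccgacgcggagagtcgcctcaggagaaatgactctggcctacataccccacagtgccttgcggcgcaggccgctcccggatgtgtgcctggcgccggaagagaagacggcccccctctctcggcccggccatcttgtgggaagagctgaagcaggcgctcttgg

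CTNNBIP1 held 6 GC boxes and 42 CpG dinucleotides in these 300 bases, NDUFB10 held 1 GC box and 39 CpG, and SERBP1 held 1 GC box and 27 CpG. CSNK1G3 held no GC box, 2 CCAAT boxes, 1 ETS match and 1 TATA match. The motifs were the GC box (GGGCGG), the CCAAT box (CCAAT), the NRF1 and YY1 sites, the ETS site (CCGGAAGT), the cyclic AMP response element (TGACGTCA), the AP-1 site (TGANTCA), the E-box (CACGTG) and the TATA box (TATAAA). Over the 3414 gained promoters with a listed sequence, the GC box was present in 71.9%, against 58.3% of all 15812 promoters listed. The ETS site was present in 11.4% of gained promoters and 6.17% of all, and TATAAA in 4.34% of gained promoters and 9.75% of all. The median CpG number was 26 in gained promoters, 31 in promoters with a peak in all 4 lists and 22 in all promoters. Gained promoters that were open in untreated cells had a median of 26 CpG, and open promoters without a Ctrl peak that were not gained had 25. Within that open group the GC box was present in 71.2% of gained and 70.2% of not gained promoters, and the ETS site in 12.2% of gained and 7.84% of not gained promoters. These are matches to letters in one window and were not tested.

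The 4 lists differed in size and in how they were made, and these differences ran across the groups as well as between them. NextA replicates 1 and 2 held 28473 and 61186 peaks, against 1418 and 41411 in Ctrl replicates 1 and 2. Both lists numbered 1 were called on q and kept their whole numbering, while both lists numbered 2 were called on p and kept 18.6% of it in NextA and 11.2% in Ctrl. The median −log10 q of all peaks was 2.22 and 0.0574 in NextA replicates 1 and 2, against 1.80 and 0.0163 in Ctrl replicates 1 and 2. For promoter peaks it was 3.77 and 0.359 in NextA, against 1.77 and 0.181 in Ctrl. Most peaks of the lists numbered 2 were thus weak by q, and every gained call also needs a peak of NextA replicate 2. Ctrl replicate 1 stood apart as the shortest list by far, and counts of gained and lost promoters and regions, list sizes and shares by position are also given without it. The labels do not say that replicates were separate cultures, so any spread between them may be technical. The lists also differed by number in their chromosomes: chromosome 19 held 8.99% and 1.67% of NextA peaks in replicates 1 and 2, against 7.26% and 1.66% of Ctrl peaks. Chromosome X held 1.12% and 5.08% of NextA peaks, against 0% and 6.48% of Ctrl peaks. Markers in untreated cells fitted the labelled line: all 8 mesenchymal markers, VIM, CD44 and AXL among them, had PolII in both control lists, and of 8 luminal markers 3 had it in both, while ESR1, ESRP1 and GRHL2 had it in neither. Of 20 leukocyte markers 4 had PolII in both control lists, and PTPRC and CD3E had none. Of 20 neuron markers 4 had PolII in both control lists.

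Called peaks covered 27.3 and 42.1 Mb in NextA replicates 1 and 2, against 0.715 and 23.7 Mb in Ctrl replicates 1 and 2. The NextA values were both above the Ctrl values, with means of 34.7 ± 10.5 and 12.2 ± 16.3 Mb (SD, n = 2 each, exact permutation p = 0.33, the smallest this design allows). The second pair turned round when weaker peaks were left out, with 0.210 Mb in NextA replicate 2 and 0.356 Mb in Ctrl replicate 2 at a −log10 q of 5 or more, and 0.759 and 0.771 Mb above a common p floor. The difference of the means, 22.5 Mb, was 0.893 Mb with all 4 lists cut to equal length and 11 Mb without Ctrl replicate 1. Peak number did not separate the groups, since Ctrl replicate 2 held more peaks than NextA replicate 1 (exact permutation p = 0.667, n = 2 each), and without Ctrl replicate 1 the NextA mean was 3418.5 peaks higher. Wide peaks were more numerous with the inhibitor in both pairs. Peaks of 2 kb or wider numbered 2775 and 3627 in NextA replicates 1 and 2, against 9 and 702 in Ctrl replicates 1 and 2, and those of 5 kb or wider numbered 104 and 127, against 0 and 4. The median width of all peaks was 680 and 372 bp in NextA replicates 1 and 2, against 409 and 380 bp in Ctrl replicates 1 and 2, so the pairs went opposite ways (exact permutation p = 1, n = 2 each).

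**Figure D1:**
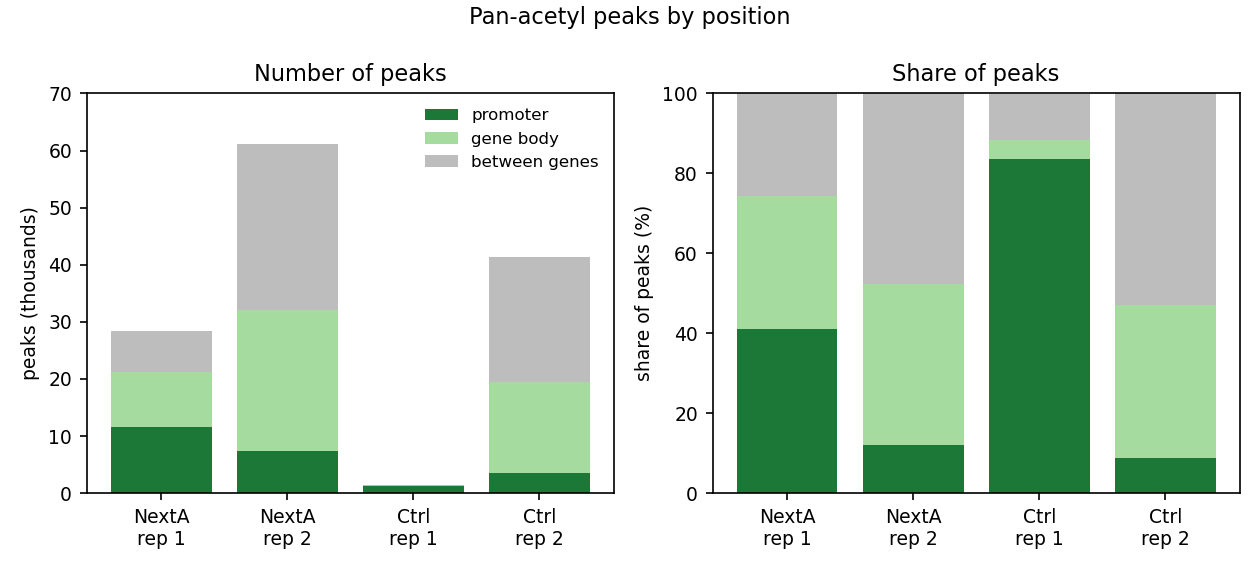
Pan-acetyl peaks of each list by position, as number of peaks in units of 1000 (left) and as percent of the list (right), with bars split into promoter, gene body and between genes. Promoter peaks make up 41.0% and 12.1% of NextA replicates 1 and 2, against 83.7% and 8.73% of Ctrl replicates 1 and 2.

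A peak was placed at a promoter when it lay within 1 kb of a protein-coding gene start, in a gene body when it otherwise overlapped such a gene, and between genes when it did neither. In the plot of peaks by position, promoter peaks numbered 11662 and 7419 in NextA replicates 1 and 2, against 1187 and 3614 in Ctrl replicates 1 and 2. As shares of their lists these were 41.0% and 12.1% with NextA, against 83.7% and 8.73% in Ctrl, lower with NextA in the first pair and higher in the second (exact permutation p = 1, n = 2 each). Gene bodies held 33.3% and 40.2% of NextA peaks, against 4.72% and 38.3% of Ctrl peaks, and the space between genes held 25.7% and 47.6% of NextA peaks, against 11.6% and 53% of Ctrl peaks. Gene-body shares were higher with NextA in both pairs (exact permutation p = 0.667, n = 2 each), and shares between genes again went opposite ways (p = 1 by the same exact test). Without Ctrl replicate 1 the promoter share was 17.8 percentage points higher with NextA, and the share in gene bodies was 1.51 points lower (a difference of -1.51). That comparison sets NextA lists called on q and on p against a Ctrl list called on p. In the second pair alone, both called on p, promoter and gene-body shares were 3.40 and 1.94 points higher with NextA.

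Far from genes the second lists stood together. Peaks more than 100 kb from any gene start made up 7.54% and 39.8% of NextA replicates 1 and 2, against 5.50% and 42.7% of Ctrl replicates 1 and 2. Few of the distal peaks in the second lists lay over open chromatin, taken as bases inside an ATAC peak in all 3 control ATAC lists. For peaks between genes that share was 24.2% and 2.86% in NextA replicates 1 and 2, against 17.1% and 1.69% in Ctrl replicates 1 and 2. For promoter peaks it was 71.5% and 67.1% in NextA, against 51.4% and 53.2% in Ctrl, higher with NextA in both pairs.

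**Figure D2:**
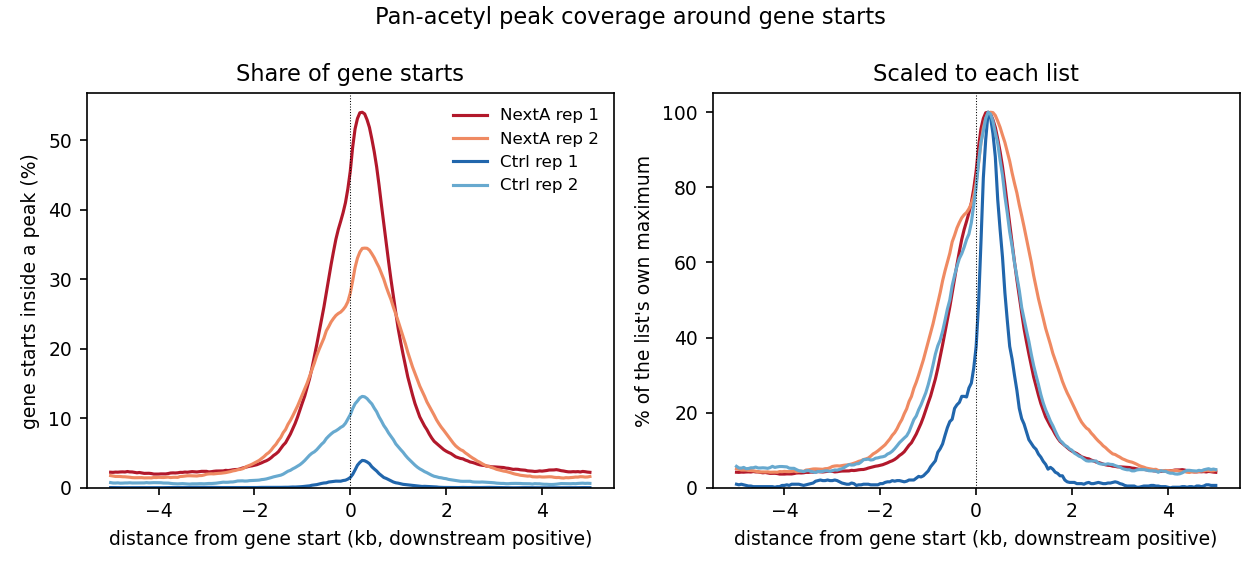
Share of 15812 listed gene starts that lie inside a pan-acetyl peak at each distance (kb, downstream positive), as percent of starts (left) and scaled to each list's maximum (right), one line per list. All 4 lines are highest 250 or 300 bp downstream of the start, at 54.0% and 34.5% in NextA replicates 1 and 2 and 3.95% and 13.2% in Ctrl replicates 1 and 2.

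Around gene starts acetylation peaks sat downstream of the start, where the first nucleosomes of a transcribed gene lie. The profile around starts was highest at 250 and 300 bp downstream in NextA replicates 1 and 2, and at 250 bp in both Ctrl lists. At its highest point 54.0% and 34.5% of starts lay inside a peak in NextA replicates 1 and 2, against 3.95% and 13.2% in Ctrl replicates 1 and 2. At the start itself the shares were 45.5% and 28.0% in NextA, against 1.49% and 10.5% in Ctrl. The maximum was 1.19 and 1.23 times the value at the start in NextA replicates 1 and 2, against 2.66 and 1.25 times in Ctrl replicates 1 and 2. Promoter peaks were 1212 and 1656 bp wide at the median in NextA replicates 1 and 2, against 402 and 967.5 bp in Ctrl replicates 1 and 2. In Ctrl replicate 1, 58.5% of all peaks lay 1 to 1000 bp from a start without covering it.

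Control peaks were met again by NextA peaks in every position class in the first pair, and mostly at promoters in the second. In the first pair 1390 of 1418 Ctrl peaks (98.0%) overlapped a NextA peak, and in the second 3946 of 41411 did (9.53%). In the first pair the share was 99.9% for promoter peaks, 98.5% in gene bodies and 84.1% between genes. In the second pair it was 63.6% for promoter peaks, 4.56% in gene bodies and 4.22% between genes. Between the NextA lists, 85.5% of promoter peaks of replicate 2 overlapped a peak of replicate 1, against 2.28% of its gene-body peaks and 2.12% of its peaks between genes. Of the peaks of Ctrl replicate 1, 36.1% at promoters, 34.3% in gene bodies and 9.76% between genes overlapped a peak of Ctrl replicate 2. The Jaccard index, the shared part of all covered bases, was 0.137 between the NextA lists, 0.00825 between the Ctrl lists and 0.0116 to 0.0590 across groups (within minus between 0.0367, exact one-sided permutation p = 0.33, n = 2 each).

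**Figure D3:**
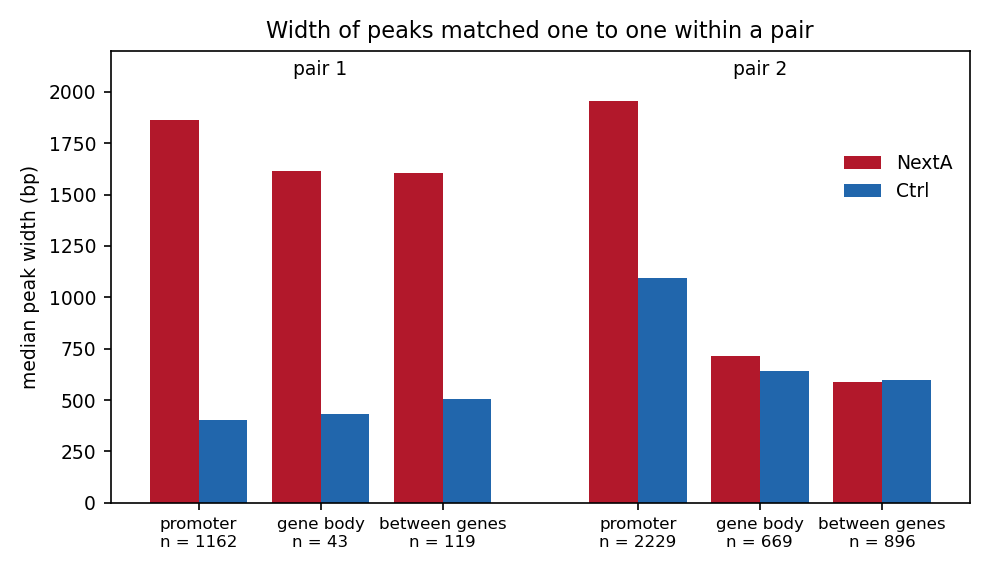
Median width (bp) of peaks that matched one to one between the NextA list (left bar) and the Ctrl list (right bar) of the same number, by position, with the number of matched peaks under each pair of bars. At promoters the medians are 1863 against 402 bp in pair 1 and 1954 against 1092 bp in pair 2.

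Where a Ctrl peak met exactly 1 NextA peak of the same number and the reverse, the NextA peak was usually wider at promoters. Matched promoter peaks had a median width of 1863 bp in NextA and 402 bp in Ctrl in pair 1, and of 1954 bp in NextA and 1092 bp in Ctrl in pair 2. The NextA peak was the wider at 1158 of 1162 promoters in pair 1 and at 1755 of 2229 in pair 2 (78.7%). Outside promoters the pairs parted. In gene bodies the median ratio of NextA to Ctrl width was 3.06 in pair 1 and 1.05 in pair 2, and between genes it was 3.22 in pair 1 and 0.950 in pair 2. Peak width follows read depth and the calling threshold as well as the mark, and their part in these widths was not tested.

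Column 7 of the lists, the authors' fold enrichment of the peak, was used only to rank peaks within their own list, as a percentile in which 100 is the strongest. Promoter peaks had a median fold percentile of 75.7 and 45.3 in NextA replicates 1 and 2, against 53.2 and 21.8 in Ctrl replicates 1 and 2. Ranked instead by the deposited −log10 p, promoter peaks stood at 75.3 and 82.8 in NextA, against 47.5 and 79.8 in Ctrl. In the second pair the fold thus placed promoters at or below the middle of the list, and the p-value placed them near the top. Width moved with fold in NextA replicate 1 (Spearman correlation across peaks 0.52) and hardly in the others (-0.016, -0.072 and 0.017 in NextA replicate 2 and Ctrl replicates 1 and 2), a description across peaks that share a library. The most significant peaks lay mostly at promoters, except in Ctrl replicate 1. Peaks with a −log10 q of 5 or more numbered 3854 and 75 in NextA replicates 1 and 2, against 15 and 202 in Ctrl replicates 1 and 2, and 3335, 62, 7 and 166 of these lay at promoters. In the second pair the strongest q values thus belonged to Ctrl, with a highest −log10 q of 18.6 in NextA replicate 2 and 41.1 in Ctrl replicate 2. Of the 202 such Ctrl peaks, 183 overlapped a peak of NextA replicate 2.

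**Figure D4:**
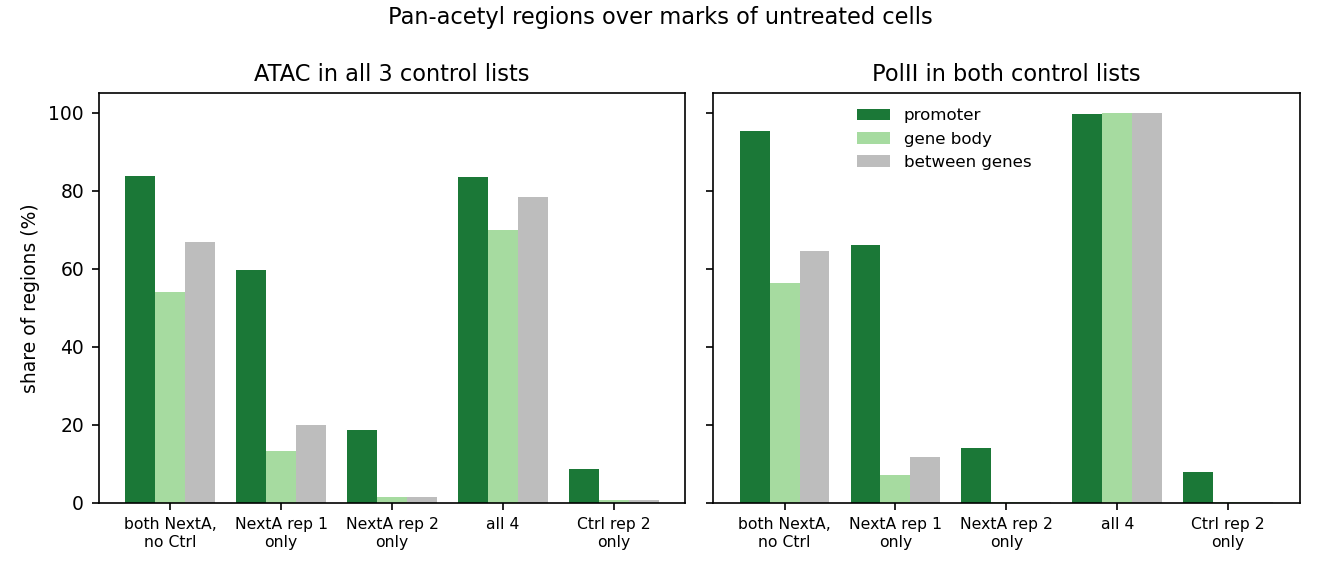
Share (%) of merged pan-acetyl regions that overlap ATAC peaks shared by all 3 control lists (left) or PolII peaks shared by both control lists (right), by the lists in which the region was called and by position. Regions called in both NextA lists and no Ctrl list overlap open control chromatin at 83.8% of promoters, 54.0% of gene-body regions and 66.8% of regions between genes.

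The peaks of the 4 lists merged into 118167 regions. Of 75959 regions without a Ctrl peak, 4364 were called in both NextA lists (5.75%). These held 3550 of 8800 promoter regions (40.3%), 374 of 32565 gene-body regions (1.15%) and 440 of 34594 regions between genes (1.27%). No region was called in both Ctrl lists and neither NextA list, out of 504 with a peak in both. Regions found in a single list were far more numerous, with 19457 in NextA replicate 1 alone, 52138 in NextA replicate 2 alone and 36312 in Ctrl replicate 2 alone. Without Ctrl replicate 1 there were 4940 gained regions, and 36312 regions had a peak in Ctrl replicate 2 and in neither NextA list.

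Most gained regions lay over chromatin that was already open and occupied by PolII in untreated cells. In the plot of region overlap, 79.6% of gained regions met open control chromatin, against 11.2% of all regions, and 89.0% met control PolII, against 10.5% of all regions. Regions called in several lists but not gained gave similar shares, 83.0% and 99.8% for those in all 4 lists and 78.1% and 94.8% for those in both NextA lists and Ctrl replicate 2. Promoter regions made up 81.3% of gained regions but 11.1% of all regions. Among promoter regions, 83.8% of gained and 66.6% of all met open chromatin, and 95.4% and 75.6% met PolII. For open chromatin the shares were 54.0% against 4.21% in gene bodies and 66.8% against 4.24% between genes. Regions of NextA replicate 2 alone met open chromatin at 1.80% and PolII at 0.451%, and those of Ctrl replicate 2 alone met them at 0.884% and 0.256%. ATAC and PolII calls differed at few of the gained regions. Of the gained regions, 234 had no control ATAC peak, and 0 of these had an ATAC peak in all 3 NextA ATAC lists, and of 3524 with an ATAC peak in all 3 control lists, 1 had none with NextA. By the same rule PolII was gained at 4 of 158 regions without a control PolII peak and lost at 1 of 3884 with both. Over every region, ATAC was gained at 56 of 94926 (0.0590%) and lost at 29 of 13423 (0.216%), and PolII was gained at 236 of 99234 (0.238%, beside 2.53% of the gained regions) and lost at 29 of 12426 (0.233%). A listed noncoding gene start lay within 1 kb of 10.2% of gained regions in gene bodies and 22.5% of those between genes, against 0.984% and 2.26% of all regions in these classes.

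By the starts used here, the 5 gained gene-body regions of highest mean fold percentile lay in KRT8, IPO5, ASAP1, AGAP1 and AGAP2. The region in KRT8, the gene of a keratin of simple epithelia, spanned chr12:52903369-52905472 and stood at the fold percentiles 95.8 and 97.2 in NextA replicates 1 and 2. The region in IPO5, a nuclear import receptor gene, spanned chr13:97975767-97977936 at the percentiles 92.2 and 98.7. Both had ATAC peaks in all 3 lists and PolII in both lists of each group. They lay 20997 and 22092 bp from the nearest start used. A promoter at a start not listed would be classed as gene body, so neither is shown to lie away from a promoter. The region in AGAP2 overlapped the antisense noncoding gene AGAP2-AS1. Between genes, the highest were a region at chr7:102363930-102364780, 7486 bp from the start of SPDYE6, and others nearest to LOC124907776, DNAJC12, ZNF337 and PPIAL4D, with ATAC and PolII in every control list at 4 of the 5 (2 of 3 ATAC control lists at the last). The widest gained region covered 21932 bp of PLEC, the gene of the cytoskeletal linker plectin, as 1 peak in NextA replicate 1 and a 1230 bp peak in NextA replicate 2. The next spanned the promoters of ZMYND8, a reader of acetylated histones, over 10698 bp, and of RBM15 over 8676 bp. A stretch of 8380 bp over the histone genes H4C2, H2AC4 and H3C2 followed.

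At gene level, pair 1 alone gained 10845 of 18634 promoters without a Ctrl 1 peak (58.2%) and lost 1 of 1340 (0.0746%). Pair 2 gained 5304 of 16035 (33.1%) and lost 1211 of 3939 (30.7%). Of those 1211, 839 had a peak in NextA replicate 1, and 372 had none in either NextA list. The 2 sets differed in untreated cells, since 79.9% of the 839 and 16.4% of the 372 were open in all 3 control ATAC lists. Without Ctrl replicate 1, 4664 promoters were gained and 372 lost, and without Ctrl replicate 2, 6079 were gained and 1 was lost. The 4047 gained promoters formed 3564 clusters of shared starts. Promoters with a peak in all 4 lists numbered 495, and 6576 had none in any.

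Gains followed the state of the promoter in untreated cells. Of promoters without a Ctrl acetylation peak, 51.6% of those open in all 3 control ATAC lists were gained, against 1.85% of those with no control ATAC peak. With PolII in both control lists 54.4% were gained, and with none 0.17%. A peak in the control HDAC6 ChIP list made with the CST antibody went with a gain at 48.7% of promoters, against 7.11% without one, and among open promoters at 55.6% against 32.5%. These shares compare promoters of the same 4 lists and carry no replicate test. The HDAC6 split rests on a single list. The control HDAC6 ChIP made with the Novus antibody and the control CUT&Tag lists were not used for it. For 2735 genes the start itself was chosen by control ATAC and PolII peaks, so for them the split by these assays is not independent of that choice. Shares on listed starts alone are not given.

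The 10 gained promoters of highest mean fold percentile, counting shared starts once, had no peak in either Ctrl list by the rule that chose them. CSNK1G3, a casein kinase 1 isoform (chr5:123512177-123617049), had fold percentiles of 99.5 and 99.6 in NextA replicates 1 and 2, from peaks of 1262 and 1905 bp. WDR43, a nucleolar factor of ribosome production (chr2:28894667-28948219), had 99.2 and 99.7, with peaks of 1484 and 3306 bp. CTNNBIP1, which blocks binding of beta-catenin to TCF factors (chr1:9848276-9910269), had 99.6 and 99.1, with peaks of 644 and 463 bp. All 3 were open and held PolII in every control list. NDUFB10, a subunit of respiratory complex I (chr16:1959538-1961975), had the highest fold of NextA replicate 1, 7.91, from a peak of 611 bp. Its peak in replicate 2 was 6529 bp wide and ran past the gene end, so its fold there may not belong to the promoter. The others were SYNGR4 with TMEM143 at a shared start, the phosphoinositide-binding PXK, PRCC, the ribosome biogenesis gene KRI1, the MAP kinase kinase gene MAP2K2 and the tubulin polyglutamylase gene TTLL4. Their fold percentiles ran from 97.7 to 99.9 over both NextA lists.

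Among promoters with a peak in all 4 lists, SERBP1, an mRNA-binding protein gene (chr1:67407810-67430402), ranked first by mean percentile. Its peak was 1835 and 5830 bp wide in NextA replicates 1 and 2, against 1004 and 2112 bp in Ctrl replicates 1 and 2. PRRC2B followed, with 2828 and 5314 bp in NextA, against 361 and 1671 bp in Ctrl. The thioredoxin gene TXN had 2027 and 2848 bp in NextA, against 439 and 2436 bp in Ctrl. All 3 were wider with NextA in both pairs. E2F3, a cell cycle transcription factor gene, parted from them in the second pair, with 2822 and 2601 bp in NextA, against 1404 and 3109 bp in Ctrl. Others of the 10 were the translation initiation genes EIF4H and EIF4G1, the kinase gene CSNK1D, the splicing factor gene RBM39 and the polycomb cofactor gene AEBP2. Over all 495 such promoters the NextA peak was the wider at 495 in pair 1 and at 417 in pair 2 (84.2%).

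**Figure D5:**
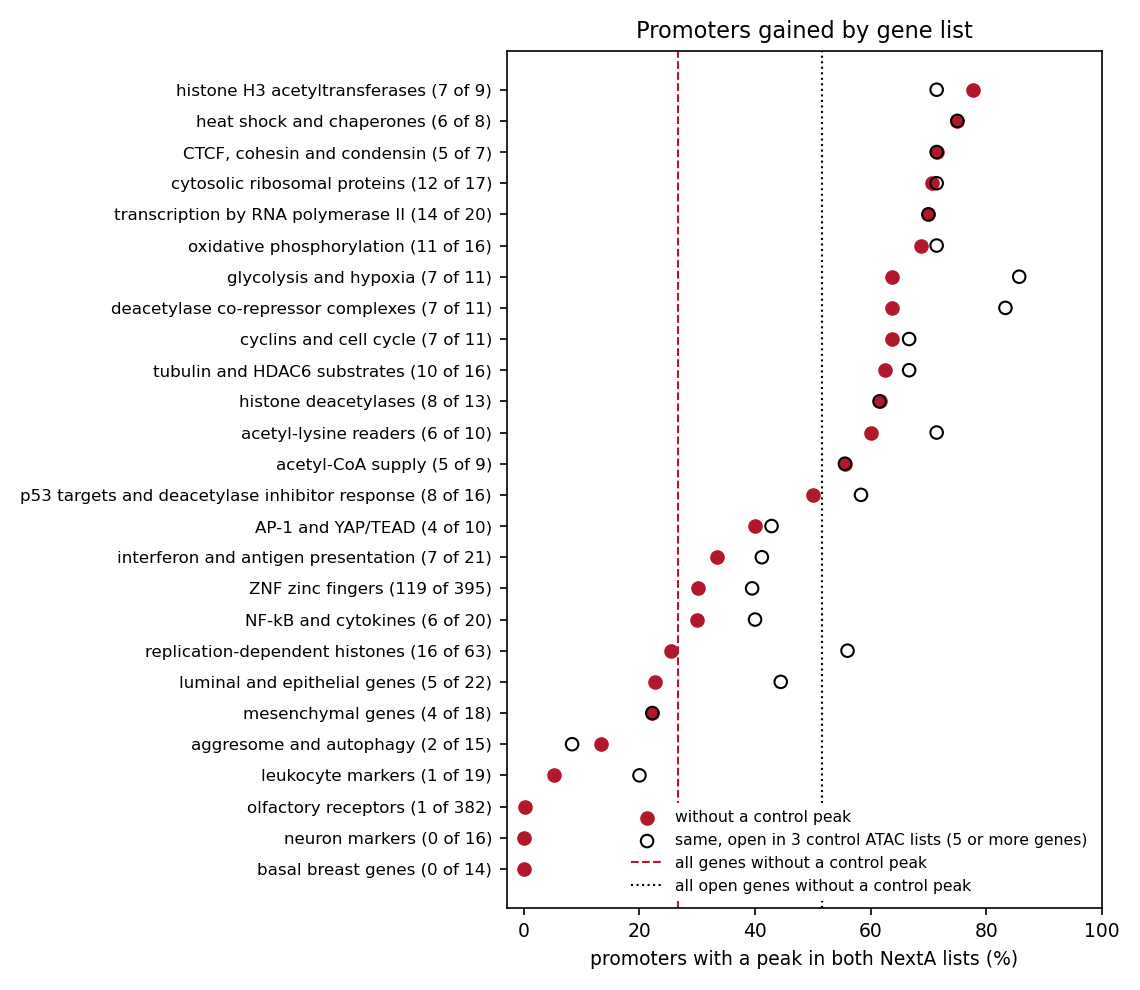
Percent of promoters gained in each gene list, out of members without a Ctrl peak (filled) and out of those also open in 3 control ATAC lists (open circles, lists with 5 or more such genes), with the counts beside each name. Dashed and dotted lines show 26.6% of all genes and 51.6% of open genes without a Ctrl peak.

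The gene encoding the inhibited enzyme gave little signal. HDAC6 (chrX:48801398-48824982) had no promoter peak in NextA replicate 1 or in either Ctrl list, and a peak of 366 bp with a fold of 2.36, at the percentile 65.0, in NextA replicate 2. Its promoter was open and held PolII in every control list.

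The writers, erasers and readers of histone acetylation were read against 26.6% of all genes, and against 51.6% of open genes. Of 9 histone acetyltransferase genes without a Ctrl peak, 7 were gained, CREBBP, KAT2A, KAT2B, KAT6A, KAT6B, KAT8 and TAF1. That list is not limited to enzymes of H3. CREBBP, which encodes the coactivator CBP, had fold percentiles of 92.5 and 46.1 in NextA replicates 1 and 2. These ranked peaks did not overlap, at chr16:3880942-3881381 in NextA replicate 1 and chr16:3879116-3880131 in NextA replicate 2. The ranked peaks of TAF1 did not overlap either. EP300, the partner of CREBBP, had a peak in both NextA lists and in Ctrl replicate 1. Of 13 deacetylase genes 8 were gained, HDAC2, HDAC4, HDAC8, HDAC9, SIRT1, SIRT3, SIRT4 and SIRT5. The ranked peaks of HDAC9 lay at different starts, chr7:18086297-18086844 in NextA replicate 1 and chr7:18495764-18496193 in NextA replicate 2. All 13 were open, so the 61.5% gained stand beside 51.6%. SIRT3, a mitochondrial deacetylase gene, had percentiles of 94.9 and 97.5 in NextA, and HDAC2, a class I enzyme gene, had 96.0 and 0.199, the widest disagreement between the lists among these members. Of 10 acetyl-lysine readers 6 were gained, PBRM1, SMARCA2 and TRIM33 among them, and BRD2 had a peak in all 4 lists. Co-repressor complexes gained 7 of 11, the NuRD members CHD4, MBD3 and RBBP4 among them, and acetyl-CoA supply genes gained 5 of 9, ACACA and ACSS1 among them. Among open members the counts were 5 of 7 acetyltransferases, 5 of 7 readers and 5 of 6 co-repressors. All 9 acetyl-CoA genes were open, so their 55.6% stand beside 51.6%. These differences were not tested. The ranked ACACA peaks also lay at different starts in NextA replicates 1 and 2.

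HDAC6 removes acetyl groups from tubulin and other cytoplasmic proteins. The genes of these proteins were counted in the same way, in a list with other tubulin-related genes such as TTLL4, MAP4 and ATAT1. These additions are not listed as HDAC6 substrates, and TTLL4 is also among the gained promoters of highest rank. Of 16 genes of this mixed list without a Ctrl peak, 10 were gained (62.5%), beside 26.6% of all genes. Among open promoters 10 of 15 were gained (66.7%), beside 51.6% of open genes, and this difference was not tested. TTLL4 had fold percentiles of 99.9 and 97.7 in NextA replicates 1 and 2, MAP4, a microtubule-binding protein gene, had 97.6 and 81.1, and HSP90AA1, the inducible HSP90, had 98.5 and 78.7. The ranked peaks of HSP90AA1 lay at different starts, chr14:102086343-102087860 in NextA replicate 1 and chr14:102138702-102141003 in NextA replicate 2. The cortactin gene CTTN was gained at 99.9 and 59.4. Of 8 heat shock and chaperone genes, all open, 6 were gained, HSPA8, CCT3, HSPH1 and HSPB1 among them, beside the same 51.6% of open genes. The ranked peaks of HSPH1 did not overlap between the NextA lists. Of 15 aggresome and autophagy genes 2 were gained, ATG16L1 and ULK1, and 1 of 12 when only open promoters were counted. Without Ctrl replicate 2 the list gained 7 of 20 (35%), beside 32.6% of every gene, and its difference from other genes was not tested.

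The lists of growth and housekeeping genes are given beside the same 26.6% of all genes and 51.6% of open genes without a Ctrl peak, and differences between lists were not tested. Transcription by PolII gained 14 of 20, cytosolic ribosomal proteins 12 of 17, oxidative phosphorylation 11 of 16, glycolysis and hypoxia 7 of 11, cyclins and cell cycle 7 of 11, and CTCF, cohesin and condensin 5 of 7. Among open members the counts were 14 of 20, 10 of 14, 10 of 14, 6 of 7, 6 of 9 and 5 of 7 in the same order. CDK4, which drives entry into S phase, had percentiles of 75.3 and 98.8 in NextA replicates 1 and 2, LDHA, the lactate dehydrogenase gene, had 73.9 and 98.7, and RPL22 had 96.5 and 99.5. Of 16 genes of the p53 and deacetylase inhibitor response 8 were gained, and 7 of the 12 open ones (58.3%). CDKN1A, which encodes the cell cycle inhibitor p21, had percentiles of 77.5 and 10.8, and GADD45A, a stress response gene, had 96.1 and 92.2.

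Lineage and signalling lists were read in the same way, with no test of their contrast to other lists. Mesenchymal genes gained 4 of 18, LOX, COL5A1, COL6A1 and SPARC, while VIM had a peak in all 4 lists. Luminal and epithelial genes gained 5 of 22, with ERBB2, ERBB3, XBP1, ESRP2 and ELF3, and basal breast genes 0 of 14. AP-1 and YAP/TEAD genes gained 4 of 10, or 8 of 14 (57.1%) without Ctrl replicate 1, and FOSL1, JUN and CCN1 had a peak in all 4 lists. NF-kB and cytokine genes gained 6 of 20, RELB and CXCL3 among them, and interferon and antigen presentation genes 7 of 21. B2M, the light chain of class I antigen-presenting molecules, had folds of 4.57 and 4.81 in NextA replicates 1 and 2 and a percentile of 91.1 in the first. Zinc finger genes gained 119 of 395 and replication-dependent histone genes 16 of 63. Among open members the gains were 2 of 9 mesenchymal, 4 of 9 luminal and epithelial, 0 of 3 basal, 3 of 7 AP-1 and YAP/TEAD, 4 of 10 NF-kB and 7 of 17 interferon genes. The zinc finger genes gave 109 of 276 (39.5%) and the histone genes 14 of 25 (56%), beside 51.6% of open genes. Markers of other tissues were close to none, with leukocyte markers at 1 of 19 (CD68), neuron markers at 0 of 16 and olfactory receptors at 1 of 382 (OR2V2). No member of any of the 26 lists was lost in the full lists, in which no promoter at all was lost. When pairs were cut to equal length by p, each list had at most 4 gained members, apart from 11 of 395 zinc finger genes, beside 390 of 15238 genes (2.56%). In that setting 1 co-repressor, 1 glycolysis and hypoxia and 3 zinc finger genes were lost, out of 42 lost promoters.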

How the data were processed

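Pan-acetyl ChIP was analysed in 2 NextA and 2 Ctrl libraries of MDA-MB231 cells, grouped by title. Per the submitters' processing notes the build was hg38 and the tools included MACS2 2.2.7.1, the aligner Bowtie2 2.4.4, and Trim Galore 0.6.7 and ChIPseeker 1.28.2 among others, with no parameters given. The authors deposited 1 peak list per sample, with 9 columns and no header. Column 7 is the fold enrichment the authors deposited, a linear ratio, and columns 8 and 9 hold −log10 p and −log10 q as the authors deposited them. The deposited score is 10 times −log10 q in the lists numbered 1 and 10 times −log10 p in those numbered 2, as a whole number. Gaps in the numbering of the lists numbered 2 show that peaks were removed after calling, by a step not given in the sources used here.

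Chromosomes 1 to 22 and X were kept, which left out 25 to 197 peaks per list. RefSeq (GRCh38.p14) supplied gene positions, and starts came from its promoter sequences, listed for 15812 of 19974 protein-coding genes. For 2735 other genes the gene end with more control ATAC and PolII peaks was taken as the start, and for 1427 both ends were kept. That rule chose the right end for 10752 of 11592 genes of known strand. An overlap of at least 1 bp counted. The list is the unit of every test, compared by exact two-sided permutation over lists, and the scripts were tested on simulated data. Python 3.11.15, pandas 2.3.3, numpy 2.4.6 and matplotlib 3.10.9 were used.

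Named genes were HDAC6, the 10 gained and 10 lost promoters of highest mean fold percentile (none was lost), the 10 highest with a peak in all 4 lists, up to 4 gained members of each of 26 gene lists, and the 5 highest gained gene-body, 5 highest between-gene and 5 widest gained regions. Other members of the short lists (KAT6A, HDAC2, CTTN, CDKN1A, VIM and the like) are named to account for their list and were chosen after their values were seen. Some genes that the rule names are left out of the text and not reported here. The members, lists and tests were chosen with earlier results of these data known. Alternatives were a −log10 q floor of 5, a common p floor, equal list lengths, promoter windows of 500 bp or 3 kb, a 200 bp minimum overlap, each replicate left out and the replicate number as a block. Equal length by p, listed starts alone, gene lists without a control replicate and a crossed pairing were added after seeing the data.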

Additional observations from a re-analysis of the deposited data

How the results depend on the processing

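Of 142 values under alternatives, 77 kept their direction (counts of promoters and regions within 1.5 times), 29 moved and 36 changed sign. No p-value threshold entered these labels. Values with the replicate number as a block repeat the main difference and so count among the 77 by construction. The cause of the changes was not tested beyond what shorter lists imply. Differences are NextA minus Ctrl. Those of peak number and covered length kept their direction in most settings but ran down to 1856 peaks at the q floor and 0.893 Mb at equal length over all 4 lists. Promoters gained numbered 0 at a −log10 q of 5 or more, 133 above a common p floor, 270 and 41 with equal length by fold within pairs and over all 4 lists, and 390 within pairs by p; regions gained numbered 0, 124, 244, 38 and 351. At equal length, promoters lost numbered 150, 31 and 42, and regions lost 134, 22 and 40, while the peak number differed by 0. Leaving out a replicate gave 4664 to 8022 promoters gained, 0 to 372 lost, 4940 to 56692 regions gained and 0 to 36312 lost.

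The promoter share differed by 20.2 points at the q floor, 4.69 and 7.26 at equal length by fold and 5.75 by p, against -19.7 in the full lists. The share between genes differed by -23.7, -5.62, -5.47 and -5.52 in the same settings and -1.14 at the p floor, against 4.40. Gene bodies gave -1.80 over all 4 lists and -0.231 by p, against 15.3. PolII overlap gave 28.9, 5.19, 8.74 and 6.13, against -21.2, and open chromatin 30.8, 15.6, 17.7 and 17.6, with 13.0 at the p floor and 4.87 at a 200 bp overlap, against -0.550. Similarity gave -0.0618, -0.0182, -0.0364 and -0.0238, with -0.0552 at the p floor, against 0.0367. Leaving out a replicate gave ranges of -57.2 to 17.8 (promoters), -16.3 to 25.1 (between genes), -1.51 to 32.1 (gene bodies), -61.8 to 19.4 (PolII), -20.6 to 19.5 (open chromatin), -22.5 to 285.5 bp (median width) and -0.0339 to 0.119 (similarity).

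With the replicate number as a block, the differences kept their values (23415 peaks, 22.5 Mb, 131.5 bp), with exact p of 0.5 to 1, where 2 pairs allow no less than 0.5. The same-numbered lists deviated with r = -0.241 over regions and 0.03 over promoters; with 2 pairs this does not settle whether the numbers pair the samples, and same-numbered lists share the calling measure. In the crossed pairing, added after seeing the data, NextA replicate 1 against Ctrl replicate 2 gave 8818 promoters in NextA alone and 573 in Ctrl alone, and NextA replicate 2 against Ctrl replicate 1 gave 6920 and 228. Without Ctrl replicate 1 or 2 the acetyltransferase list gained 8 of 10 in each case, and the autophagy list 3 of 16 and 7 of 20. Read depth is unknown, so no interval or detection limit can be given.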
